A study of Sus scrofa with 42 samples.

Results

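Histone chaperones are proteins that hold histones while they are carried, exchanged or built into nucleosomes. Expression of 10 of their genes was examined in single cells of pig embryos made with or without sperm: the nucleoplasmin family (NPM1, NPM2 and NPM3), HIRA and ATRX, which place the histone variant H3.3 on DNA, ASF1A, ASF1B and NASP, which carry newly made H3 and H4, and CHAF1A and CHAF1B, the large and middle subunits of chromatin assembly factor CAF-1. The genes were chosen by name from the 15351 genes of the table. Of them, 9 were found by their gene symbol and NPM1 by its gene ID (ENSSSCG00000016998), and 9 of the 10 passed the filter on low values, all except HIRA.

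After sperm entry, nucleoplasmin of the egg takes up protamines and helps the compact sperm chromatin to open, and HIRA loads maternal H3.3 onto the male genome before the first replication. ASF1 proteins hand H3 and H4 to HIRA or, at replication forks, to CAF-1, while NASP protects the soluble pool of these histones. A parthenogenetic embryo has no sperm chromatin to remodel, but it replicates its maternal genome and assembles nucleosomes as a fertilized embryo does.

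Oocytes from ovaries of slaughtered gilts were matured in vitro, and then either fertilized in vitro (IVF) or activated without sperm (PA) by an electric pulse followed by 6-dimethylaminopurine and cytochalasin B. Both kinds of embryo were cultured in vitro in PZM-3 medium. They were collected at the 1-, 2-, 4- and 8-cell stages after 19, 27, 48 and 72 h, and those past 1 cell were taken apart into single blastomeres. Hours were counted from the end of the incubation with sperm for IVF and from the electric pulse for PA. Equal hours are thus not equal times since sperm were added or the pulse was given. For each method the table held 3 1-cell embryos, 6 blastomeres of 3 2-cell embryos, 9 blastomeres of 3 4-cell embryos and 3 blastomeres of 1 8-cell embryo, 42 cells of 20 embryos in all. The question put to the 10 genes was how their transcripts run down or persist from 1 to 8 cells, and whether embryos with and without sperm differ.

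Between 3169707 and 12004870 reads on genes could be recovered per cell. Mitochondrial mRNA made up 10.7% (IVF) and 10.8% (PA) of summed FPKM on average in 1-cell embryos and 38.6% and 41.0% at the 8-cell stage, and its part in the stage differences was not tested beyond a rescaling to nuclear genes, which kept the 3 calls of NASP and ASF1A. The 5 oocyte markers in the table, BMP15, GDF9, ZP2, ZP3 and ZAR1, had medians of 114, 23.3, 2.82, 0.0219 and 0 FPKM over the 42 cells. Their sum was 101 to 198 FPKM in IVF and 141 to 216 in PA 1-cell embryos. In 8-cell blastomeres it was 0.958 to 22.4 (IVF) and 0.260 to 78.8 (PA). The 3 cumulus cell markers in the table (CYP19A1, STAR and TNFAIP6) summed to 4.87 to 12.2 FPKM in IVF and 4.18 to 5.92 in PA 1-cell embryos, and to at most 0.0664 and 0.0175 in 8-cell blastomeres. STAR made up most of this sum and TNFAIP6 reached at most 0.214 FPKM in any cell. The sums of the oocyte and of the cumulus markers were thus lower at the 8-cell stage, together with several of the chaperone transcripts. The part of these markers in those differences was not tested. Of 6 listed sperm markers only AKAP4 was in the table, and it reached 1 FPKM in 2 cells. Its highest value, 9.02 FPKM, was in PA 4-cell-2-2, a blastomere of an embryo made without sperm. In IVF 4-cell blastomeres it was at most 1.82 FPKM, and it was 0 in all 1-cell embryos. The blastomere PA 4-cell-1-4 had almost the same profile as PA 2-cell-1-2 (Pearson's r of log2 values 0.999), and so did PA 4-cell-2-1 and PA 2-cell-2-1 (0.999), whereas no other of the 861 pairs of cells went above 0.908. For several members, tests without these cells are given beside those with them. Counts of cells, group means and ranges between sisters include them throughout. Nothing in the labels says that embryos of a group came from separate batches of oocytes, so p-values measure the spread between these embryos.

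In 1-cell embryos, 7 of the 10 transcripts (NPM1, NPM2, ATRX, ASF1A, ASF1B, NASP and CHAF1A) were at 1 FPKM or more in each of the 6 cells, as were 2846 of the 8116 genes tested (35.1%). CHAF1B followed with 5 of 6 cells and NPM3 with 3 of 6, and HIRA was below 0.1 FPKM in all 6. The shares of cells at 1 FPKM or more then took different courses. NPM1 stayed at 1 FPKM or more in 12 of 12, 16 of 18 and 6 of 6 cells of the 2-, 4- and 8-cell stages, and ATRX in 12 of 12, 16 of 18 and 4 of 6. NASP held on in 12 of 12 and 15 of 18 cells and was then left in 1 of 6. ASF1A went from 9 of 12 to 9 of 18 and 2 of 6 cells, CHAF1A from 10 of 12 to 6 of 18 and 1 of 6, and NPM2 from 9 of 12 to 7 of 18 and 0 of 6. ASF1B was at its rarest in 4-cell embryos (3 of 18 cells) and was found again in 2 of the 6 8-cell blastomeres. For the 2846 genes present in every 1-cell embryo, the median share of cells was 91.7%, 50% and 16.7% at the 2-, 4- and 8-cell stage. Of them, 484 (17.0%) were below 0.1 FPKM in all 6 8-cell blastomeres, as NPM2 was. The 7 members and these genes start at all 6 1-cell embryos, so their shares can only stay or fall. Reads on genes were 7613280 to 11768286 (IVF) and 9211055 to 11006714 (PA) in whole 1-cell embryos. In single 8-cell blastomeres they were 3169707 to 7953803 and 6049807 to 12004870. The part of input and depth in the shares was not tested.

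**Figure D1:**
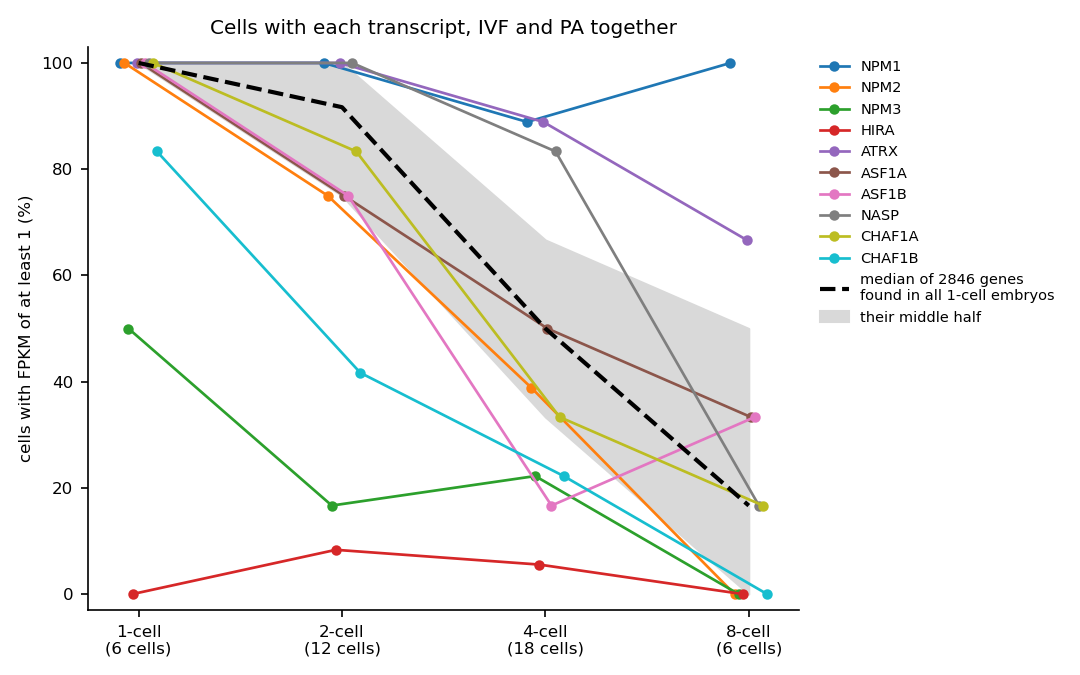
Share of cells with at least 1 FPKM (y axis, percent) at each stage (x axis), IVF and PA cells together, for the 10 genes (lines, moved sideways a little for legibility). The dashed line and grey band are the median and the interquartile range of the 2846 genes present in all 1-cell embryos. NPM1 and ATRX stay above the band at the 8-cell stage, at 6 of 6 and 4 of 6 cells, and NPM2 reaches 0 of 6.

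NPM2, the nucleoplasmin of oocytes (chromosome 14, 6289370 to 6303841, plus strand, in the Sscrofa11.1 coordinates of the table), had 41.3, 20.8 and 19.9 FPKM in the IVF 1-cell embryos and 20.9, 28.2 and 31.1 in the PA ones, so the groups overlapped. In 2-cell embryos the blastomeres ranged from 2.67 to 33.5 FPKM in IVF (median 19.7) and from 0.0870 to 21.6 in PA (median 5.28). In 4-cell embryos most blastomeres had little or none, with medians of 1.84 (IVF) and 0.0562 (PA), but single blastomeres reached 71.8 FPKM (IVF 4-cell-1-4) and 138 FPKM (PA 4-cell-2-3). The last is well above any 1-cell embryo, while its sisters 2-2 and 2-4 had 0.0849 and 0. By the 8-cell stage NPM2 was at 0, 0.0386 and 0.0432 FPKM in IVF and 0.0291, 0.0536 and 0 in PA, which is no read or 1 read per cell. The 8-cell embryo was below every 1-cell embryo in both methods. The differences between 8- and 1-cell stages were −4.70 (IVF, SE 1.69, adjusted p = 0.0669, limma) and −4.74 (PA, SE 1.69, adjusted p = 0.0689) on the log2(FPKM + 1) scale and so did not pass the threshold with all 8 groups in 1 fit. With only the 1- and 8-cell groups in the fit they did, with adjusted p of 0.0234 and 0.0146. They also did without PA 4-cell embryo 2, which holds the blastomere at 138 FPKM, with 0.0206 and 0.0205. Each passed under 4 of the 12 alternatives of the closing section and in 1 of the 18 fits without 1 embryo, and not in the rest.

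**Figure D2:**
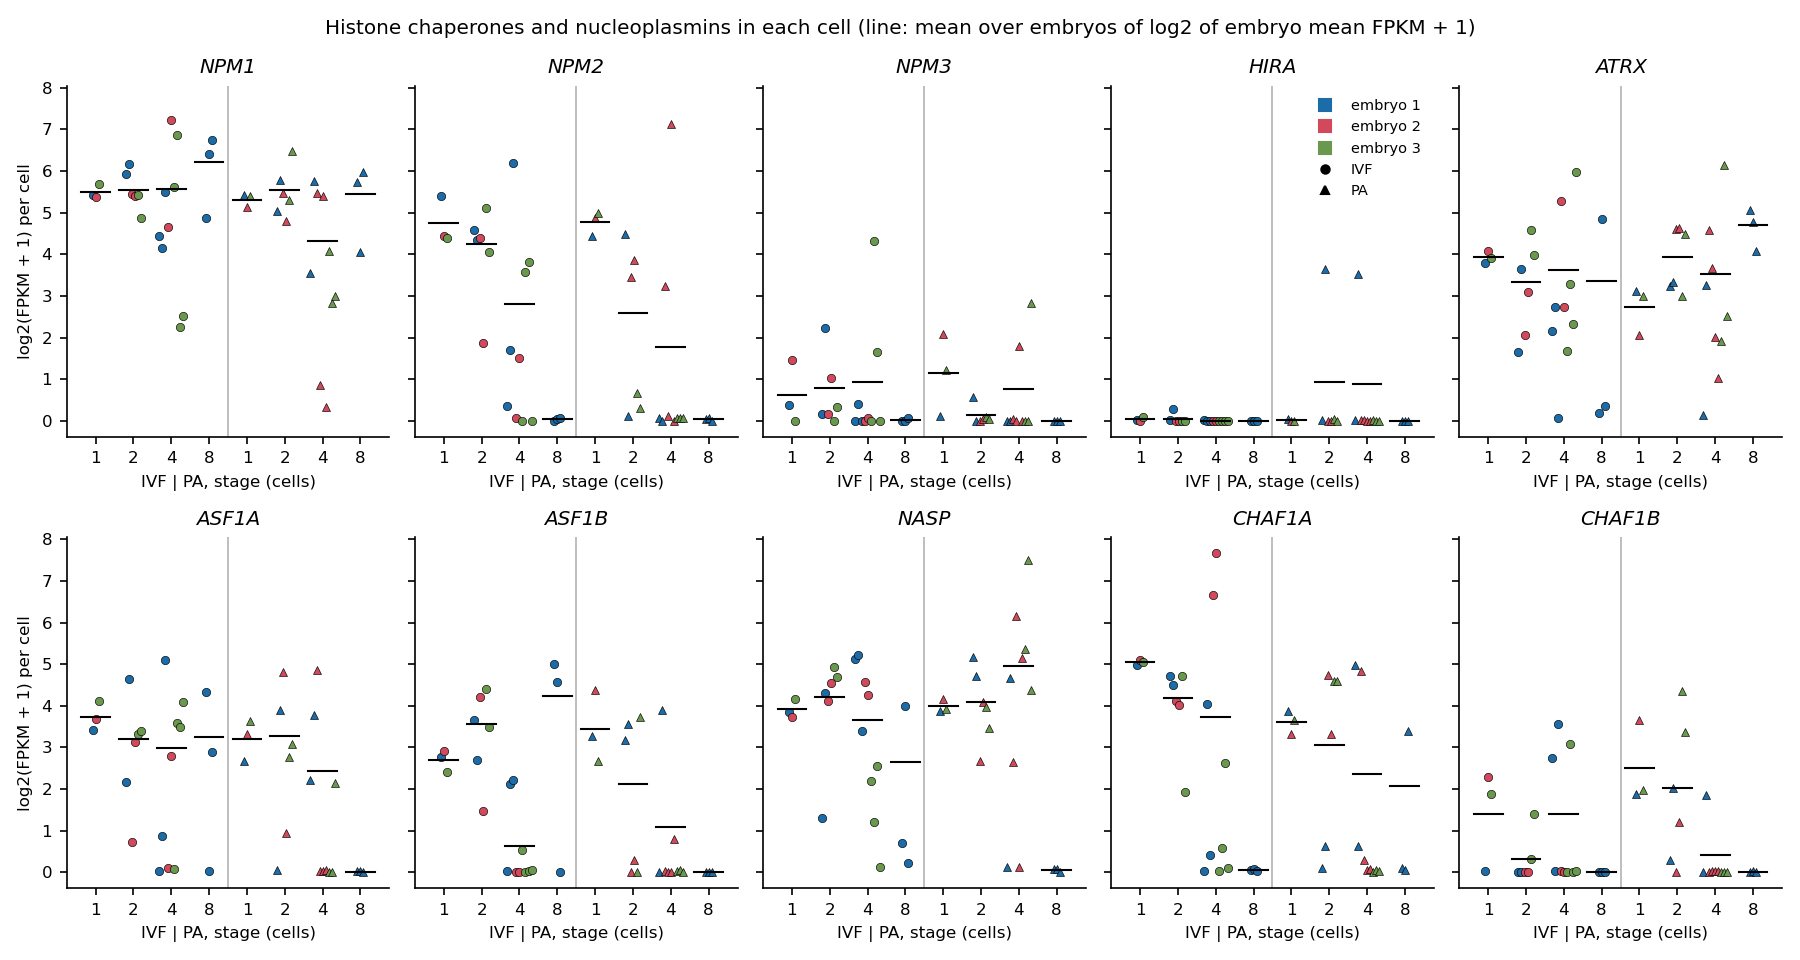
FPKM of the 10 genes in each of the 42 cells, as log2(FPKM + 1), by method (circles IVF, left of each panel; triangles PA, right) and stage (x axis, number of cells), coloured by embryo number within a group; lines are means over embryos. The 1-cell embryos lie close together for 7 genes, the 4-cell blastomeres spread from 0 up to 201 FPKM (CHAF1A), and NPM2 is near 0 in all 6 8-cell blastomeres.

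NPM1, a nucleolar chaperone with many partners (chromosome 16, 52765297 to 52781862, minus strand), was found at every stage. It was 44.4 ± 5.30 FPKM (SD, n = 3) in IVF and 39.0 ± 4.398 in PA 1-cell embryos, and 47.4 ± 15.6 and 47.0 ± 14.4 in 2-cell embryos. PA 4-cell embryos averaged 21.0 ± 11.09 FPKM, each below every PA 2-cell embryo (log2 difference −1.23, SE 0.56, adjusted p = 0.424, limma). Without the PA 4-cell blastomeres 1-4 and 2-1 the difference was −1.91 and passed the threshold (adjusted p = 0.0442), whereas scaling by the median ratio turned it to 1.27 (adjusted p = 0.281). IVF 4-cell embryos averaged 52.4 ± 30.9 FPKM and were not told apart from PA (log2 difference 1.27, adjusted p = 0.303, limma). Without PA 4-cell-1-4 and 2-1 that difference was 1.95 (adjusted p = 0.0579). In 8-cell blastomeres NPM1 was 28.4, 84.3 and 106 FPKM in IVF and 51.9, 15.5 and 61.5 in PA. NPM3 (chromosome 14, 112819393 to 112821367, minus strand), the third family member, was low, at 0 to 3.27 FPKM in 1-cell embryos. Its highest value, 18.8 FPKM, was in IVF 4-cell-3-2, and no 8-cell blastomere had more than 0.0465.

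Of the 3 carriers of new H3 and H4, NASP (chromosome 6, 165770273 to 165805369, minus strand) and ASF1A (chromosome 1, 43201715 to 43256158, minus strand) are the members with a difference that passed the test, and the 250 bases upstream of their RefSeq start sites are shown for that reason, read 5′ to 3′ on the gene's strand from the Sscrofa11.1 genome. The RefSeq start lies 391 bp from that of the table for NASP and 41139 bp for ASF1A. Capitals mark the CCAAT box, in either direction.
NASP (chr6:165804979-165805228, minus strand): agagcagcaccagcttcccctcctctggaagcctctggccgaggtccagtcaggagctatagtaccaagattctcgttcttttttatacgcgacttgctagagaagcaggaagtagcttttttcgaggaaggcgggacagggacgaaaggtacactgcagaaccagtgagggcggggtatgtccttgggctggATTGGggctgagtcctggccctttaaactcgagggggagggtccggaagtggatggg
ASF1A (chr1:43215020-43215269, minus strand): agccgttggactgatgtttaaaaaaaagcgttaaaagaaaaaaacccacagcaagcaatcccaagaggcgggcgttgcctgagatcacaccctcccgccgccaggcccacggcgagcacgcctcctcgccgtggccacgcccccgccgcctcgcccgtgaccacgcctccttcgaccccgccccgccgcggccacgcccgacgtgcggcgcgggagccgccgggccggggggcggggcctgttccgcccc
NASP held 1 CCAAT box and ASF1A none. Of the 9 genes with a RefSeq promoter window, 5 held CCAAT (ASF1B, CHAF1A, NASP, CHAF1B and ATRX), as did 31.9% of the windows of 19556 protein-coding genes. The E2F sites TTTCCCGC, TTTCGCGC, TTTGCCGC and TTTGGCGC and the motif TAATTG, searched on both strands, were in 0 of the 9 windows and in 2.81% and 6.06% of all, which describes these letters in these windows and nothing more.

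NASP, which shields free H3 and H4, had 13.5, 12.3 and 17.1 FPKM in IVF and 13.7, 16.9 and 14.2 in PA 1-cell embryos. In 2-cell blastomeres it ranged from 1.47 to 29.7 FPKM in IVF (median 20.6) and from 5.38 to 35.1 in PA (median 15.4). In 4-cell embryos it was 16.5 ± 12.5 FPKM (SD, n = 3) in IVF and 39.8 ± 35.4 in PA, with single blastomeres up to 179 FPKM (PA 4-cell-3-3). The PA 8-cell blastomeres then had 0.0592, 0.0641 and 0.00460 FPKM, that is 17, 10 and 1 reads, below every earlier PA embryo. The IVF 8-cell blastomeres had 0.621, 15.1 and 0.171, so 1 of 3 kept the level of the 1-cell stage. NASP fell in PA from the 4- to the 8-cell stage (log2 difference −4.91, SE 1.12, adjusted p = 0.00745, limma on log2 of the embryo mean FPKM plus 1), 1 of 9 members called lower, where 3.18% of all genes were called lower. From the 1- to the 8-cell stage of PA it fell by 3.93 (adjusted p = 0.0256). Both calls rest on a single 8-cell embryo. Without blastomeres 1-4 and 2-1 of PA 4-cell embryos the differences were −3.82 (adjusted p = 0.182) and −3.93 (adjusted p = 0.129), whereas without PA 2-cell-1-2 and 2-1 both calls were kept (adjusted p of 0.00892 and 0.0305). Without PA 1-cell embryo 2 the second was −3.84 (adjusted p = 0.0569). With the mean of log2 values per embryo, the 4- to 8-cell difference was −3.83 (adjusted p = 0.0723), and with only the compared groups in the fit its adjusted p was 0.263. The 1- to 8-cell difference was −2.36 (adjusted p = 0.496) under median-ratio scaling, −1.98 (adjusted p = 0.150) with a pseudocount of 5, and had an adjusted p of 0.0575 with cells as samples and the embryo as a random term.

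NASP was not called in IVF (8- against 4-cell: −1.01, adjusted p = 0.709), and the difference between the methods in this step was 3.89 (SE 1.59, adjusted p = 0.232), so the steps were not shown to differ. A second gene, ENSSSCG00000035907 (chromosome 6, 165775753 to 165776737, plus strand), lies within NASP on the other strand. Its log2(FPKM + 1) values had a Pearson's r of 0.698 with those of NASP over the 42 cells, which share libraries and scaling. Its values ran from 87.9 to 235 FPKM in PA 1-cell, from 0.155 to 838 in PA 4-cell and from 0 to 1.24 in PA 8-cell blastomeres. The strandedness of the libraries is not given in the sources used here, so reads of these genes cannot be told apart where they overlap.

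ASF1A, the H3-H4 carrier that works with HIRA, had 9.76, 11.8 and 16.4 FPKM in IVF and 5.39, 8.99 and 11.5 in PA 1-cell embryos. In 4-cell embryos it was 7.88 ± 4.36 FPKM (SD, n = 3) in IVF and 5.47 ± 3.796 in PA, where 5 of 9 blastomeres were below 0.1. The PA 8-cell blastomeres had 0.0191, 0.0234 and 0 FPKM, against 19.3, 0.0169 and 6.38 in IVF. ASF1A fell in PA from the 1- to the 8-cell stage by 3.19 (SE 1.02, adjusted p = 0.0433, limma). With NASP this made 2 of 9 members called lower in that comparison, against 6.21% of all genes. The call is at the edge of the threshold: leaving out any single IVF 1-cell or PA 1-cell embryo, IVF 2-cell embryo 1 or 3, or PA 2-cell embryo 1 raised the adjusted p to between 0.0510 and 0.0981, and leaving out PA 4-cell-1-4 and 2-1 raised it to 0.0530. Under median-ratio scaling the difference was −1.97 (adjusted p = 0.164), and with cells as samples and the embryo as a random term the adjusted p was 0.109. From the 4- to the 8-cell stage of PA the difference was −2.42 (adjusted p = 0.170).

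ASF1B, the paralog most tied to dividing cells (chromosome 2, 65062899 to 65074302, plus strand), was lowest at the 4-cell stage in IVF and at the 8-cell stage in PA. IVF 1-cell embryos had 5.87, 6.58 and 4.32 FPKM and PA ones 8.75, 19.8 and 5.44. In 2-cell blastomeres of IVF it was 1.78 to 20.1 FPKM (median 10.9), and in those of PA 0 to 12.2 (median 4.11). In IVF 4-cell blastomeres the median was 0.0191 and the highest value 3.64, and all 3 embryos were below every 2-cell embryo. That difference, −2.92 (SE 0.93, adjusted p = 0.110, limma), did not pass the threshold. It did without IVF 4-cell embryo 1 (−3.48, adjusted p = 0.0382) and with the mean of log2 values (−2.78, adjusted p = 0.0379). It passed under 2 of the 12 alternatives of the closing section and in 1 of the 18 fits without 1 embryo, and not in the rest. In IVF 8-cell blastomeres ASF1B was 31.0, 22.6 and 0.0118 FPKM, which is 1119, 2152 and 1 reads, so 2 of 3 sisters exceeded every 1-cell embryo. In PA 8-cell blastomeres it was 0.00792, 0.0146 and 0, at most 1 read each. The 8- against 4-cell difference of IVF was 3.60 (SE 1.31, adjusted p = 0.116), and that between the methods in this step was 4.68 (SE 1.85, adjusted p = 0.214). Both passed under scaling by the median ratio, with 5.30 (adjusted p = 0.00150) and 6.31 (adjusted p = 0.00637). That is 1 of the 12 alternatives of the closing section, and neither passed under the rest. The only PA 4-cell blastomere above 1 FPKM was 1-4, at 13.9, which repeats PA 2-cell-1-2 at 10.8. Without it and 2-1, ASF1B was lower in PA 4- than 1-cell embryos by the test (−3.33, adjusted p = 0.0155, against −2.36 and 0.215 with them).

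**Figure D3:**
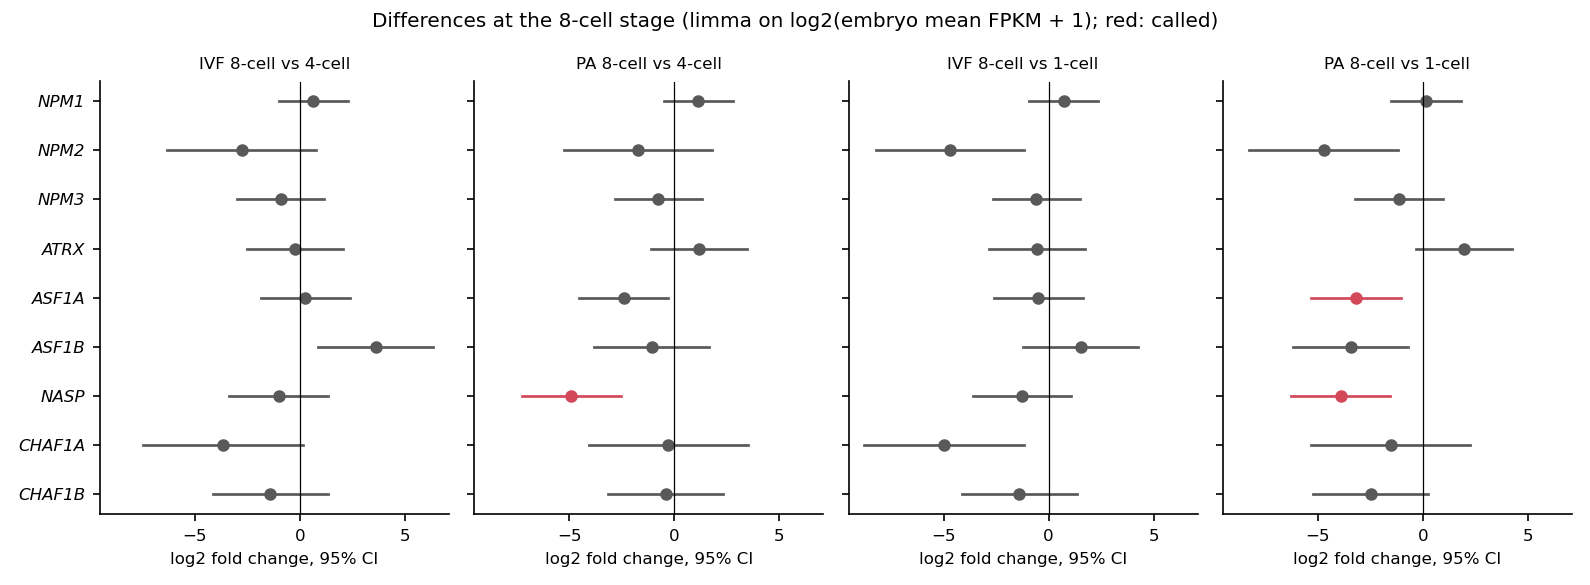
Log2 fold changes of the 9 tested members with 95% confidence intervals (x axis, log2 of embryo mean FPKM plus 1, from limma), for 8- against 4-cell and 8- against 1-cell embryos of each method. Red marks NASP (8 against 4 and 8 against 1) and ASF1A (8 against 1), called lower in PA; no member was called in IVF.

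CHAF1A, the large subunit of CAF-1 (chromosome 2, 74381075 to 74411659, minus strand), was even within each method in 1-cell embryos. IVF embryos had 30.4, 33.4 and 32.1 FPKM and PA embryos 13.7, 8.995 and 11.7. The difference of 1.42 (SE 1.28, 95% interval −1.26 to 4.11) did not pass the test (adjusted p = 1, limma), whose spread comes from all 8 groups. ATRX had 12.8, 15.8 and 14.1 FPKM in IVF and 7.71, 3.19 and 6.99 in PA 1-cell embryos (difference 1.19, SE 0.77, adjusted p = 1). Groups of 3 embryos also separate by chance, and how many of all genes did so was not counted. In IVF 4-cell blastomeres CHAF1A was at 201 and 99.5 FPKM in embryo 2, against 0.0172 to 5.14 in embryo 3. In IVF 8-cell blastomeres it was 0.0350, 0.0664 and 0.0298 FPKM, below every 1-cell embryo (−4.98, SE 1.81, adjusted p = 0.0709). Without IVF 4-cell embryo 2 in the fit the adjusted p was 0.0261. That was the only 1 of the 18 fits without 1 embryo where the difference passed. It passed under 4 of the 12 alternatives of the closing section. In PA 8-cell blastomeres it was 0.0701, 0.0369 and 9.58, so 1 of 3 kept the level of PA 1-cell embryos. CHAF1B, the middle subunit (chromosome 13, 200048154 to 200073268, plus strand), was lower, at 2.19 ± 1.98 FPKM in IVF and 5.75 ± 5.08 in PA 1-cell embryos, with at most 1 read in any 8-cell blastomere. RBBP4, the small subunit of CAF-1, was measured at 170 ± 17.7 and 81.7 ± 56.3 FPKM in the same 1-cell embryos and at 0.651 to 302 FPKM in 8-cell blastomeres.

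HIRA (chromosome 14, 51029124 to 51102813, minus strand) was hardly seen at the RNA level. It was at 0 in 26 of the 42 cells and at most 0.219 FPKM in 14 others, and only PA 2-cell-1-2 (11.4 FPKM, 1948 reads) and PA 4-cell-1-4 (10.5 FPKM, 1789 reads) were higher, the pair of cells with nearly identical profiles. Its reads were not detectable at this depth in most cells, and its gene model lies within that of MED15 on the same strand, so its counts are uncertain. CABIN1, a HIRA complex subunit, reached at most 1.12 FPKM, while the subunits UBN1 and UBN2 reached 60.6 and 96.5. ATRX (chromosome X, 61583574 to 61872266, minus strand), the chromatin remodeller that works with DAXX, was at 1 FPKM or more in 4 of 6 8-cell blastomeres. From Y-linked expression, the paper classed the IVF 8-cell embryo as male and every PA embryo as female. The part of sex in the values of this X-linked gene was not tested. PA 8-cell blastomeres had 32.6, 26.4 and 16.0 FPKM, all above the PA 1-cell embryos (1.97, SE 1.09, adjusted p = 0.266), and IVF 8-cell blastomeres had 0.135, 27.6 and 0.277. DAXX was at 1 FPKM or more in few cells, with medians of 0.170 and 0.214 FPKM in IVF and PA 1-cell embryos and a highest value of 26.99 in PA 8-cell blastomeres.

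Sister blastomeres lay farther apart in 4-cell than in 2-cell embryos for most members. In 2-cell embryos the highest minus the lowest sister was at the median over 6 embryos 0.606 for NPM1, 0.482 for NASP and 2.43 for ASF1A on the log2(FPKM + 1) scale, against 0.622 for all genes tested. In 4-cell embryos it was 3.35 for ASF1A, 3.33 for ATRX, 3.297 for CHAF1A, 2.76 for NASP, 2.62 for NPM2 and 2.39 for NPM1, against 1.14. It was below that for NPM3 (1.098), CHAF1B (0.945), ASF1B (0.668) and HIRA (0.0177), and narrower than in 2-cell embryos for ASF1B and CHAF1B. That background includes genes near 0 in all sisters, whose range is small by construction. For genes above 10 FPKM in some cell of the group, the median SD over cells was 1.93 (IVF) and 1.95 (PA) in 4-cell groups, beside 1.79 and 1.88 for the members. The spread of the members was close to that of other genes at such levels, and the number of blastomeres per embryo differed (2 to 4).

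**Figure D4:**
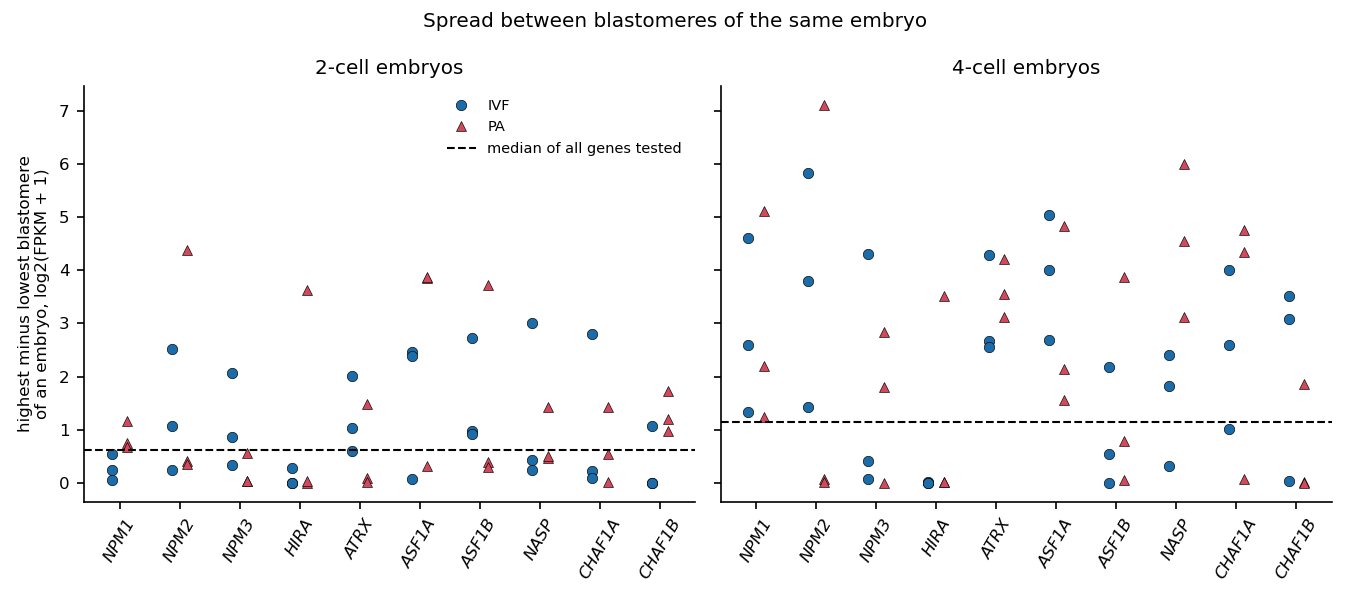
Difference between the highest and the lowest blastomere of each embryo (y axis, log2(FPKM + 1)) for the 10 genes, in 2-cell (left) and 4-cell embryos (right); circles are IVF and triangles PA embryos, and the dashed line is the median of all genes tested (0.622 and 1.14). At 4 cells, NPM1, ATRX and ASF1A lie above the line in all 6 embryos.

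Fertilized and parthenogenetic embryos were compared at each stage. None of the 9 members tested was called at the 1-cell stage (background 0.0123% higher and 0.0370% lower in IVF), at the 2-cell stage (0.00% and 0.00%), at the 4-cell stage (0.419% and 0.136%) or over the mean of the 3 stages (0.0123% and 0.0246%) by limma. At an unadjusted p under 0.05, the count was 0, 0, 1 (NPM1) and 0 of 9, where 4.09%, 5.43%, 14.0% and 14.6% of all genes had one. The medians of the 9 log2 differences were −0.03, 0.13 and 0.56 at 1, 2 and 4 cells, beside 0.24, 0.25 and 0.23 for all genes. The intervals were wide. For NPM2 they were −2.53 to 2.47 at the 1-cell stage and −1.46 to 3.54 at the 4-cell stage, so a several-fold difference in either direction lies within them. For the steps between stages, the differences between methods gave 0 members called (background 0.00% and 0.00%, 0.00% and 0.00%, and 0.887% higher and 1.97% lower for 2 against 1, 4 against 2 and 8 against 4 cells), with 0, 0 and 2 (ASF1B and NASP) at an unadjusted p under 0.05 (2.80%, 5.35% and 14.5% of all genes).

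**Figure D5:**
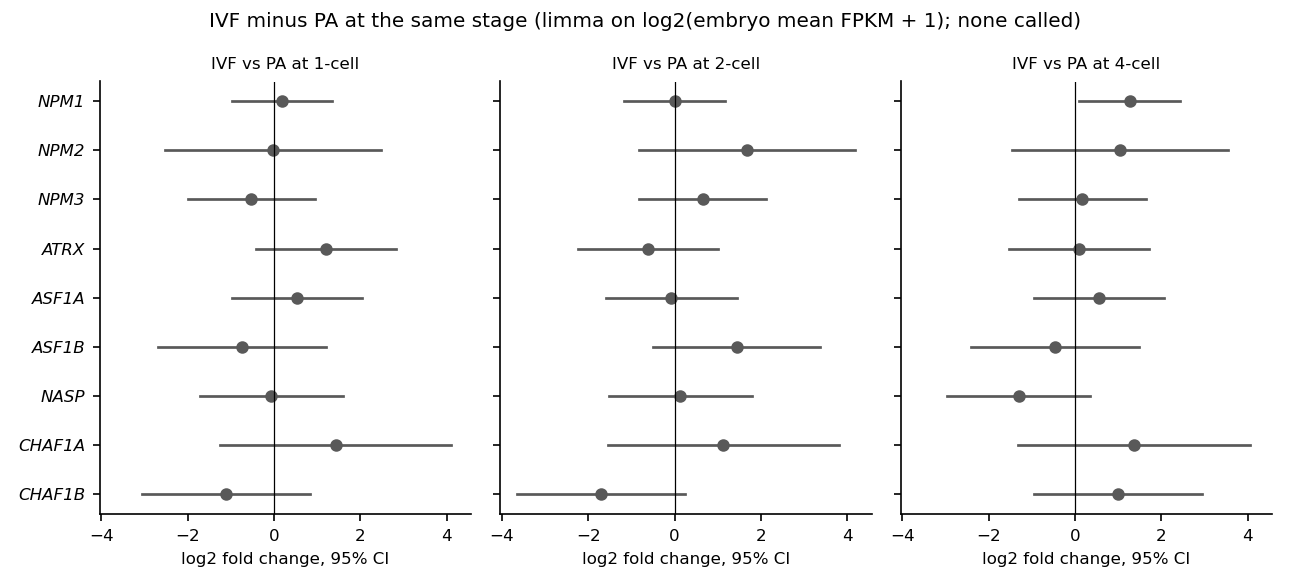
Log2 difference of IVF minus PA (x axis, log2 of embryo mean FPKM plus 1) with 95% confidence intervals for the 9 tested members at the 1-, 2- and 4-cell stages, from limma with 3 embryos in each group. No member was called; CHAF1A is at 1.42 and ATRX at 1.19 at the 1-cell stage.

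In the earlier steps few genes were called. No member was called from the 1- to the 2-cell stage (background, called higher and lower: 0.00% and 0.00% in IVF, 0.00% and 0.0986% in PA), from the 2- to the 4-cell stage (0.616% and 0.493%, 0.382% and 0.0123%) or from the 1- to the 4-cell stage (0.961% and 1.24%, 0.505% and 0.444%). In these steps 0, 1 and 1 members of IVF and 0, 1 and 3 of PA had an unadjusted p under 0.05, and each of them was lower at the later stage, where 2.66%, 17.6% and 20.6% of all genes in IVF and 4.85%, 10.8% and 15.7% in PA had such a p. In IVF, 0 members were called from the 4- to the 8-cell stage (background 3.72% higher and 3.25% lower) and 0 from the 1- to the 8-cell stage (6.03% and 8.23%), with 1 and 2 at an unadjusted p under 0.05 (19.4% and 29.6% of all genes). In PA, 0 were called higher in these steps (6.81% and 7.58%), and 2 and 4 members had an unadjusted p under 0.05, all lower (20.7% and 26.4% of all genes in either direction). These directions depended on the scaling. With each cell scaled by the median ratio over nuclear genes, NPM1 and ATRX were called higher in PA 8- than 1-cell embryos (3.84, adjusted p = 0.00247, and 5.86, adjusted p = 0.0317) and NASP and ASF1A were no longer called. NPM1 (3.97, adjusted p = 0.00267), ASF1A and ASF1B were then called higher in IVF 8- than 1-cell embryos. The same scaling moved the genes called higher and lower from the 1- to the 8-cell stage from 489 and 668 to 1503 and 118 in IVF, and from 615 and 504 to 1714 and 116 in PA. From the 4- to the 8-cell stage, they went from 302 and 264 to 974 and 173 in IVF and from 553 and 258 to 1188 and 326 in PA, where NASP was still called lower. Between IVF and PA 4-cell embryos the split went from 34 and 11 to 93 and 274, with 0 members called under either. The median of the 9 members from the 1- to the 8-cell stage was −0.59 in IVF and −2.50 in PA, beside −0.77 and −0.58 for all genes. These medians are not matched for starting level. Of the members, 7 were at 1 FPKM or more in every 1-cell embryo, as were 35.1% of the genes tested. A gene near 0 there can hardly fall on the log2(FPKM + 1) scale.

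Of 19 tested partners of these chaperones, chosen as a list, 1 was called higher and 1 lower in IVF 8- against 4-cell embryos. Of all genes, 3.72% were called higher and 3.25% lower there. In PA 8- against 1-cell embryos 1 partner was called higher and 2 lower (7.58% and 6.21% of all genes). IVF 8- against 1-cell (6.03% and 8.23%) and PA 8- against 4-cell embryos (6.81% and 3.18%) had 1 higher and 1 lower each. For the difference between methods from 4 to 8 cells, 0 were higher and 2 lower (0.887% and 1.97%). NAP1L1, a carrier of H2A and H2B, rose in both methods, from 7.09 ± 0.82 FPKM (SD, n = 3) in IVF and 6.997 ± 1.09 in PA 1-cell embryos to 216 and 167 in the 8-cell embryos (log2 differences 4.75 and 4.41, adjusted p = 0.00613 and 0.0105, limma). HAT1, which acetylates new H4, fell in PA by 4.44 (adjusted p = 0.0214) and was 0 in all 3 PA 8-cell blastomeres. Without PA 1-cell embryo 2 its adjusted p was 0.0531. RBBP7, the partner of HAT1, fell in PA from the 4- to the 8-cell stage by 4.46 (adjusted p = 0.00239), from 38.9 ± 21.2 to 0.589 FPKM. This call of RBBP7 was lost under 3 of the 12 alternatives of the closing section, among them the fit of only the compared groups. MMS22L, which with TONSL binds histones at replication forks, fell in IVF from the 4- to the 8-cell stage by 5.66 (adjusted p = 5.52e-05), from 72.1 ± 45.1 to 0.291 FPKM, and was 88.3 FPKM in the PA 8-cell embryo. Its step differed between methods (−6.63, SE 1.04, adjusted p = 0.00218). With only the compared groups in the fit, neither passed (adjusted p = 0.228 for IVF and 0.0944 for the difference between methods).

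Among 6 tested genes for histones and histone mRNA binding, 2 were called higher and 2 lower from the 1- to the 8-cell stage in IVF. The counts in PA were likewise 2 and 2. Of all genes, 6.03% were called higher and 8.23% lower in IVF, and 7.58% and 6.21% in PA. H2AFZ, the gene of H2A.Z, rose by 4.51 (adjusted p = 0.0290) and 5.18 (adjusted p = 0.0145), and 1 of the 2 table rows named H3F3A (ENSSSCG00000023971), the cargo of HIRA and ATRX, rose by 3.89 (adjusted p = 0.0289) and 4.86 (adjusted p = 0.00842). Near-identical copies of H3F3A could share reads, so its value is uncertain. H1FOO, the oocyte linker histone, fell by 6.84 (adjusted p = 8.09e-07) and 4.20 (adjusted p = 0.000171). SLBP, which binds histone mRNA, fell by 3.73 (adjusted p = 0.0235) and 3.65 (adjusted p = 0.0276). Under median-ratio scaling SLBP was at −2.23 in IVF and not called. H2AFZ and H3F3A were not called in IVF with a pseudocount of 0.1 or the embryo as a random term. Without PA 4-cell-1-4 and 2-1, H2AFZ was not called in IVF. In PA, SLBP, H2AFZ and H3F3A each lost the call under 1 of the 12 alternatives of the closing section. Of 5 tested nucleolar proteins, 1 (FBL) was called higher in PA 8- than 1-cell embryos (6.45, adjusted p = 0.0263), beside 7.58% of all genes. Its adjusted p was 0.0513 to 0.0531 without any single PA 1-cell embryo. Leaving out any single IVF 1-cell embryo raised the adjusted p of H2AFZ in IVF to between 0.0541 and 0.0636, leaving out IVF 1-cell embryo 3 raised that of H3F3A in IVF to 0.0748, and leaving out 1-cell embryo 1 or 2 of the same method raised that of SLBP to between 0.0535 and 0.0596 in IVF and between 0.0630 and 0.0640 in PA.

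The 9 tested members did not move as 1 group. Over the 20 embryos the 36 pairs of members had a median Pearson's r of 0.0935, with 1 pair above 0.5 (NPM2 and ASF1A, 0.609) and 1 below −0.5 (ATRX and ASF1B, −0.588), as a description over embryos that share stage and scaling. A transcript much like NPM2 over the 20 embryos was AP1AR (r 0.882), and those most like CHAF1A were TMEM218 (0.899) and PGBD5 (0.877). For ASF1A they were TTC21B (0.893) and TBC1D32 (0.881), for ASF1B SPATA7 (0.864) and UBA3 (0.830), and for NASP SMNDC1 (0.849) and AHSA1 (0.825). NPM1 was most like ARHGAP11A (0.83) and FAM76B (0.796), NPM3 like SRSF4 (0.797) and RAVER2 (0.797), ATRX like YTHDC1 (0.752) and C4orf3 (0.723), and CHAF1B like ENSSSCG00000028472 (0.803) and ALG14 (0.793).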

How the data were processed

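The authors amplified and sequenced cDNA of single blastomeres and deposited 1 table of FPKM (fragments scaled to gene length and mapped reads). HISAT2 (alignment to Sscrofa11.1), StringTie and HTSeq were their tools. Versions and strandedness are not given in the sources used here. The extract protocol in the labels describes another procedure (Trizol, total RNA). Amplified reads without molecular identifiers are not independent molecules. Whole reads (tolerance 0.01 read) were recovered for 14541 of 14692 expressed genes (99.0%), for a description of depth.

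FPKM values of sister blastomeres were averaged to 1 value per embryo. Genes reaching 1 FPKM in 3 or more cells (8116) entered the test on log2(FPKM + 1), which understates changes of low genes, with limma 3.58.1 in R 4.3.3 and a mean-variance trend, 8 groups in 1 fit, with Benjamini-Hochberg adjustment over all genes. The 8-cell groups have 1 embryo each and borrow the spread of the others, so their blastomeres give no error of their own, and IVF and PA 8-cell embryos were not tested against each other. A gene was called where the adjusted p was under 0.05 and the change 2-fold or more. The members and lists were chosen with earlier results of these data known. All 10 members were named; list genes were named where called, at most 3 per list and comparison by the size of the change, with the 2 most correlated genes of each tested member, of which 1 is not reported here. RBBP4, UBN1, UBN2, CABIN1 and DAXX, which were not called, and SLBP, a further called gene of its list, were named outside this rule, after their values were seen. Of the 27 listed partners, 22 were in the table. On simulated embryos, the fit of 8116 genes called 30 of 50 genes changed by 4 on the log2 scale for IVF 4- against 2-cell, 27 for IVF against PA 1-cell and 5 for PA 8- against 4-cell embryos. Of 50 genes changed by 2 on that scale it called 1, 3 and 0, and of 50 changed by 3 it called 17, 9 and 0. These shares hold for the simulated setting, which differs from the data in the number of changed genes. Promoters were read from RefSeq's Sscrofa11.1. Python 3.11.15, numpy 2.4.6 and pandas 2.3.3 were used. Alternatives are in the closing section.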

Additional observations from a re-analysis of the deposited data

Results flagged for a closer look

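Within the 2- and 4-cell groups, 13 of 40 tests of a member (32.5%) had a blastomere far from the others by Dixon's ratio of log2 values, where 22.6% to 44.7% of all genes did per group, although chance alone flags about 1 in 20 groups. In IVF 2-cell embryos NPM2 was 2.67 FPKM in 2-2 (others 15.5 to 33.5), NASP 1.47 in 1-1 (others 16.4 to 29.7), CHAF1A 2.80 in 3-2 (others 15.1 to 25.4), CHAF1B 1.64 in 3-2 and HIRA 0.219 in 1-2. In IVF 4-cell embryos NPM3 was 18.8 FPKM in 3-2, and HIRA was 0.0142 in 1-1, which is 1 read. In PA 2-cell embryos NPM3 was 0.478 in 1-1 and HIRA 11.4 in 1-2. In PA 4-cell embryos NPM2 was 138 FPKM in 2-3, and 1-4 stood apart for HIRA (10.5), ASF1B (13.9) and CHAF1B (2.63). That blastomere is 1 of the pair whose profile repeats a 2-cell blastomere, and the 2-cell cell PA 2-cell-1-2 had 11.4, 10.8 and 3.08 FPKM of the same genes.

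Both partners whose step from 4 to 8 cells differed between IVF and PA were lower in IVF. They were 2 of 19 tested, where 0.887% of all genes were called higher and 1.97% lower. For MMS22L the difference was −6.63 (SE 1.04, adjusted p = 0.00218, limma, embryos 3 and 1 per group). For TLK1, the kinase of ASF1, it was −8.73 (SE 2.29, adjusted p = 0.0469), with 0.154 FPKM in the IVF 8-cell embryo and 80.1 in the PA one, and leaving out single embryos (14 of the 18 that could be left out) raised the adjusted p to between 0.0536 and 0.0743. In fits of the compared groups alone, the adjusted p was 0.0944 for MMS22L and 0.437 for TLK1.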

How the results depend on the processing

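The 8-cell groups hold 1 embryo each, only 3 embryos make up the other groups, and amplified reads carry no molecular identifiers. On simulated data changes of 4 on the log2 scale were mostly missed in PA 8 against 4. Fewer genes were changed there than the 553 and 258 called higher and lower in the real comparison. The adjustment is then stricter, so that share does not carry over to the real fit. Of 17 comparisons, 8 kept the same count of called members under the 12 alternatives and 18 fits without 1 embryo. The others moved as follows (limma). With the mean of log2 values, counts were 1 (IVF 4- against 2-cell, main 0), 1 (IVF 4 against 1, main 0), 2 (IVF 8 against 1, main 0), 0 (PA 8 against 4, main 1), 2 (PA 4 against 1, main 0) and 4 (PA 8 against 1, main 2). Cells with the embryo as a random term gave 1 (IVF 4 against 2) and 2 (IVF 8 against 1). In PA 8 against 1 they kept the count of 2 with other members, NPM2 and ASF1B (adjusted p of 0.0269 and 0.0417) in place of NASP and ASF1A. Median-ratio scaling, which shifts the log2 differences of genes by a median of up to 1.42 (IVF 8 against 1), kept that count with NPM1 and ATRX, called higher, and gave 1 (IVF 8 against 4), 3 (IVF 8 against 1), 2 (PA 8 against 4) and 2 for the difference between methods in that step (main 0). A pseudocount of 0.1 gave 2 (IVF 8 against 1) and 2 (PA 8 against 4), and one of 5 gave 0 (PA 8 against 1). Only the groups compared gave 2 (IVF 8 against 1), 0 (PA 8 against 4) and NASP with NPM2 in PA 8 against 1. Without PA 4-cell-1-4 and 2-1 counts were 1 (PA 4 against 2, main 0), 0 (PA 8 against 4), 1 (PA 4 against 1) and 0 (PA 8 against 1), and without PA 2-cell-1-2 and 2-1 the last was 1. Without 1 embryo counts ranged from 0 to 1 (IVF 4 against 2, IVF 8 against 1, PA 4 against 1), 1 to 2 (PA 8 against 4) and 0 to 3 (PA 8 against 1). NPM1 reversed under median-ratio scaling in PA 4 against 2 (1.27) and IVF against PA at 4 cells (−0.20), and in PA 8 against 1 with nuclear genes rescaled (−0.21), the mean of log2 values (−0.0708) and the random term (−0.0708). The causes were not tested.

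The nearly repeated blastomeres tie PA 2- and 4-cell embryos 1 and 2. Of 45 pairs of embryos with the same number, 4 correlated over 0.1 (median 0.0083, highest 0.355). Of 90 pairs with different numbers 1 did (median −0.0026, highest 0.113). Whether embryos of the same number share an origin was not tested. A replicate block by number left the count of called members at 1 in PA 8 against 4 and at 2 in PA 8 against 1, where ASF1B (adjusted p 0.0469) passed beside NASP and ASF1A did not (0.0529), and at 0 in all others.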
